A study of Mus musculus with 9 samples.

Results

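A set of 10 genes of the trophectoderm, the outer epithelium of the blastocyst that gives rise to the placenta, was followed in mouse embryonic stem cells after knockdown of Apela, whose RNA encodes a short secreted peptide and is described in the series title as regulatory. They were the keratins Krt8, Krt18, Krt7 and Krt19, the transcription factors Cdx2, Eomes, Gata3, Elf5 and Tfap2c, and the growth factor gene Bmp8b. Each was read from the brightest probe set with that single gene symbol, and all 10 had 1 such probe set, among 19938 genes in all. The list holds known genes of the lineage and was selected on the differences of shApela_1 from shLuc, in which Krt8 and Bmp8b led a downward shift, so the values of that comparison are given as a description with no test. The test was made with the second hairpin, whose arrays the choice did not use, although its shLuc controls are the same.

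The study compared 3 groups of 3 arrays. The groups shApela_1 and shApela_2 were R1E mouse embryonic stem cells transduced with lentiviruses that carry 1 of 2 short hairpin RNAs against Apela, and shLuc was the same line with a hairpin against luciferase, which has no target in mouse cells. The medium of all groups held 15% fetal bovine serum and leukemia inhibitory factor at 1000 units/ml, a signal against differentiation, and no drug was given. The labels name 1 cell line and leave unsaid whether a repeat was its own culture or transduction, so the p-values speak of the scatter among these arrays, which may be technical. Values are log2 signals on Affymetrix arrays, and fewer cells of a type and less RNA per cell cannot be told apart in them.

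In the embryo, the Hippo pathway is off in outer cells, YAP1 enters the nucleus and binds TEAD4, and TEAD4 with GATA3 turns on Cdx2, which represses the stem cell gene Pou5f1. Eomes and Elf5 then maintain trophoblast stem cells, TFAP2C acts throughout the lineage and also in germ cells, and KRT8 with KRT18 forms the first intermediate filaments of the embryo. Keratins assemble only as pairs of a type II protein (KRT8, KRT7) and a type I protein (KRT18, KRT19). BMP8B is made by the extraembryonic ectoderm, a trophoblast tissue, and helps to induce primordial germ cells. In embryonic stem cells POU5F1 in turn keeps Cdx2 low.

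Apela itself fell with both hairpins. Its log2 level was 9.76, 9.68 and 9.65 on the shApela_1 arrays and 9.79, 9.79 and 9.56 on the shApela_2 arrays, against 11.40, 11.31 and 11.19 in shLuc, a difference of -1.60 with shApela_1 and of -1.58 with shApela_2 (limma adjusted p = 0.000219 for shApela_2). The third shApela_2 array stood apart from the other 8. Its median of 7.12 lay above theirs (7.03 to 7.07), its interquartile range of 3.29 below theirs (3.50 to 3.59), and its deviations from the other arrays went with brightness (Spearman -0.44 across genes, against -0.13 to 0.29 for the others), so that dim genes read high and bright genes low on it. Differences of the 10 genes with shApela_2 are therefore given with and without it. Stem cell markers were high in every group, with mean log2 levels over 12 markers of 11.56 to 11.60 in shApela_1 and 11.56 to 11.65 in shApela_2, against 11.59 to 11.63 in shLuc. Of these 12 markers 9 were lower than shLuc in shApela_1 (median -0.04) and 4 in shApela_2 (median 0.01). Dppa5a and Nanog, the brightest of them, measured 12.79 and 12.33 in shApela_1 and 12.85 and 12.30 in shApela_2, against 12.82 and 12.28 in shLuc.

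The label of the list held only in part in these cells. Krt8, Krt18, Krt19, Eomes, Tfap2c and Bmp8b averaged over the median probe set of the table (7.06), and Krt7, Cdx2, Gata3 and Elf5 lay under it on all 9 arrays. Thus 3 of the 5 transcription factors, with Cdx2 and Elf5 among them, gave no more signal than the dimmer part of the array in any group. The files hold no detection call, so whether these 4 genes were expressed was not tested. Exact values also repeated between arrays, and not for dim genes alone. Of the 10 genes 6, with Eomes and Tfap2c among them, had a value shared exactly by at least a pair of arrays. So did 51.5% of all genes, 71.1% of those under the median and 34.4% of those over it.

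With shApela_1 the group mean of 9 of the 10 genes lay below that of shLuc, with a median difference of -0.15 on the log2 scale. Over all genes 45.5% were lower and the median was 0.01. The arrays of both groups did not overlap for 3 genes, all lower, and this was also so for 5.61% of all genes in that direction and for 8.05% upward. These values chose the list and support nothing. With shApela_2, 6 of 10 were lower with a median of -0.05, beside 42.5% and a median of 0.02 over all genes. That background turned with the scaling: with array medians centred 62.3% of all genes were lower (median -0.026), beside 7 of the 10 (median -0.087), and 61.9% (median -0.023) when dim genes were left out. In limma, 0 of the 10 passed the threshold (adjusted p under 0.05 over all genes), 0 had an unadjusted p under 0.05, and 0.015% of all genes passed. Without the third shApela_2 array the median of the 10 was -0.01, and 6 were lower.

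**Figure D1:**
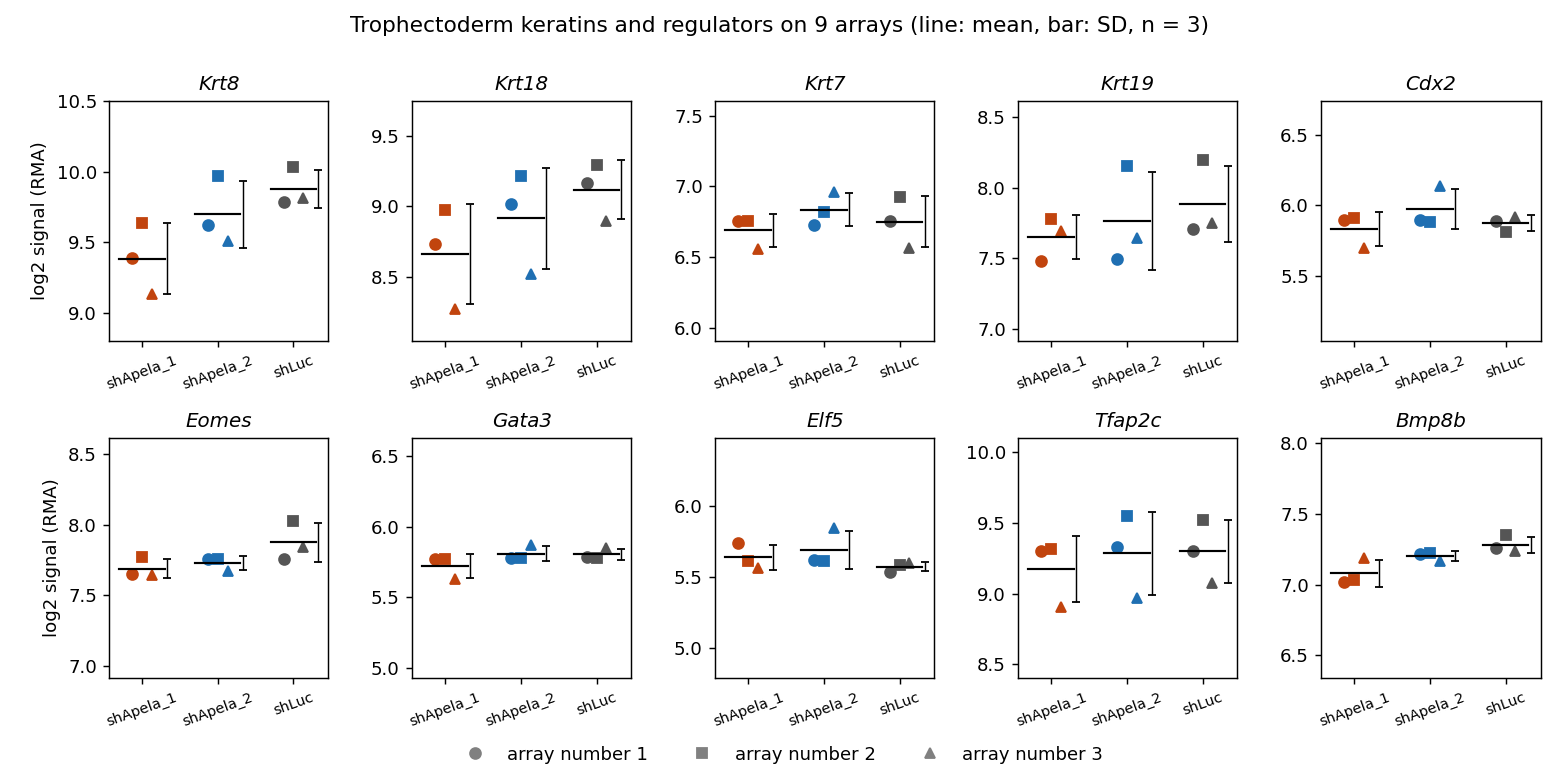
Log2 signal of the 10 genes (vertical axis, a window of equal height in each panel) in shApela_1, shApela_2 and shLuc. Points are arrays, with a symbol for each replicate number, horizontal lines are means and vertical bars are SDs (n = 3). Krt8 and Krt18 have their lowest means in shApela_1, and Cdx2, Gata3, Elf5 and Krt7 read between 5.54 and 6.96.

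The type II keratin Krt8 (probe set 10432918) showed the largest difference of the list in shApela_1. Its log2 level was 9.39, 9.63 and 9.13 on the shApela_1 arrays, against 9.79, 10.03 and 9.81 in shLuc, a difference of means of -0.49, or 0.711 times the control signal. All 3 shApela_1 arrays lay below all 3 shLuc arrays. On the shApela_2 arrays Krt8 measured 9.62, 9.97 and 9.51. The second of these lay within the shLuc range and the others lay below it, so the groups overlapped. The difference of shApela_2 from shLuc was -0.18 (SE 0.15, 95% interval -0.51 to 0.16, limma adjusted p = 0.705), and -0.08 without the third array (adjusted p = 0.956). The order of the means was thus shApela_1, shApela_2, shLuc, and the neighbours shApela_2 and shLuc did not differ beyond their spread.

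Krt18 (probe set 10427075), which encodes a type I partner of KRT8 in filaments, followed the same order. It measured 8.73, 8.98 and 8.28 in shApela_1 and 9.02, 9.21 and 8.52 in shApela_2, against 9.17, 9.29 and 8.89 in shLuc. The groups overlapped in both comparisons, and the third array of each group lay below the other arrays of its group. The difference of shApela_1 from shLuc was -0.46 on the log2 scale, a ratio of 0.728, and -0.27 without the third shApela_1 array. With shApela_2 the difference was -0.20 (SE 0.22, 95% interval -0.69 to 0.29, limma adjusted p = 0.756). Without the third shApela_2 array it was -0.0030 (adjusted p = 1), a value in which the third shLuc array, low as well, remains. With the third array of every group left out, a setting added after the data were seen, the difference was -0.12 for Krt18 (limma adjusted p = 0.818) and -0.11 for Krt8 (adjusted p = 0.876). Number by number, Krt18 differed between shApela_2 and shLuc by -0.15, -0.08 and -0.37, although the numbers of these groups did not meet the rule for pairing.

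Krt19 and Krt7 differed from that pair. Krt19 (probe set 10391036), a short type I keratin without a tail domain, measured 7.48, 7.78 and 7.70 in shApela_1 and 7.497, 8.16 and 7.64 in shApela_2, against 7.71, 8.20 and 7.75 in shLuc. The groups overlapped, and the array numbered 2 was the highest in each of them. Its difference from shLuc was -0.24 in shApela_1 (-0.08 without the second shLuc array) and -0.12 in shApela_2 (95% interval -0.54 to 0.30, limma adjusted p = 0.824, and -0.06 without the third array). Krt7 (probe set 10427052), the other type II keratin of simple epithelia, read between 6.55 and 6.96 on all arrays. Its differences were -0.06 in shApela_1 and 0.09 in shApela_2 (95% interval -0.14 to 0.32, limma adjusted p = 0.769, and 0.02 without the third array). The value 6.76 was shared exactly by 3 arrays, a pair from shApela_1 and 1 from shLuc.

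Bmp8b (probe set 10507817), a ligand of the BMP family, had small differences with little spread. Its log2 level was 7.02, 7.03 and 7.19 in shApela_1 and 7.22, 7.23 and 7.17 in shApela_2, against 7.26, 7.35 and 7.24 in shLuc. Every array of either hairpin lay below every shLuc array, by a narrow margin in shApela_2. In shApela_1 the difference was -0.20, a ratio of 0.870. In shApela_2 it was -0.08 (SE 0.06, 95% interval -0.20 to 0.05, limma adjusted p = 0.684), and -0.06 without the third array. It was 1 of the 10 genes with groups that did not overlap downward in shApela_2, beside 4.65% of all genes.

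The transcription factors that read over the median, Eomes and Tfap2c, did not pass the test either. Eomes (probe set 10589994), a T-box factor of trophoblast stem cells and of the primitive streak, measured 7.65, 7.77 and 7.64 in shApela_1 and 7.76, 7.76 and 7.67 in shApela_2, against 7.76, 8.03 and 7.84 in shLuc. The groups overlapped at 7.76, the exact value of the first shLuc array and of the first and second shApela_2 arrays. The difference was -0.18 in shApela_1 and -0.15 in shApela_2 (SE 0.07, 95% interval -0.31 to 0.02), which had the smallest p of the 10 genes (unadjusted p = 0.0706, limma adjusted p = 0.68). Without the third shApela_2 array it was -0.12.

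Tfap2c (probe set 10478997), the AP-2 gamma gene, differed more between array numbers than between groups. It measured 9.30, 9.32 and 8.90 in shApela_1 and 9.33, 9.55 and 8.97 in shApela_2, against 9.30, 9.52 and 9.08 in shLuc. The third array was the lowest of each group, and its difference from the mean of the other arrays was -0.41 in shApela_1, -0.47 in shApela_2 and -0.33 in shLuc. The differences from shLuc were -0.13 in shApela_1 and -0.01 in shApela_2 (95% interval -0.41 to 0.38, limma adjusted p = 0.982), and without the third array the shApela_2 difference was 0.14.

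Cdx2, Gata3 and Elf5 read at dim levels throughout. Cdx2 (probe set 10535771), the caudal homeobox factor that specifies trophectoderm, ranged from 5.70 to 5.91 in shApela_1 and 5.88 to 6.13 in shApela_2, against 5.81 to 5.92 in shLuc. Its highest value was on the third shApela_2 array, and the difference of shApela_2 from shLuc was 0.10 with that array and 0.02 without it (95% interval with it -0.09 to 0.28, limma adjusted p = 0.703). Gata3 (probe set 10479981), a zinc finger factor that acts with TEAD4, ranged from 5.63 to 5.77 in shApela_1 and 5.78 to 5.87 in shApela_2, against 5.78 to 5.85 in shLuc. All shApela_1 arrays lay below all shLuc arrays, in part by less than 0.01, while the shApela_2 difference was 0.01 (limma adjusted p = 0.975, and -0.03 without the third array). Elf5 (probe set 10474171), an ETS factor of trophoblast stem cells, was the 1 gene of the list with a higher mean in shApela_1 (0.06). It measured 5.62, 5.61 and 5.84 in shApela_2, against 5.54, 5.59 and 5.60 in shLuc, so that these groups did not overlap, as for 5.68% of all genes upward. The difference was 0.12 (95% interval -0.04 to 0.28, limma adjusted p = 0.68), and 0.04 without the third array.

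**Figure D2:**
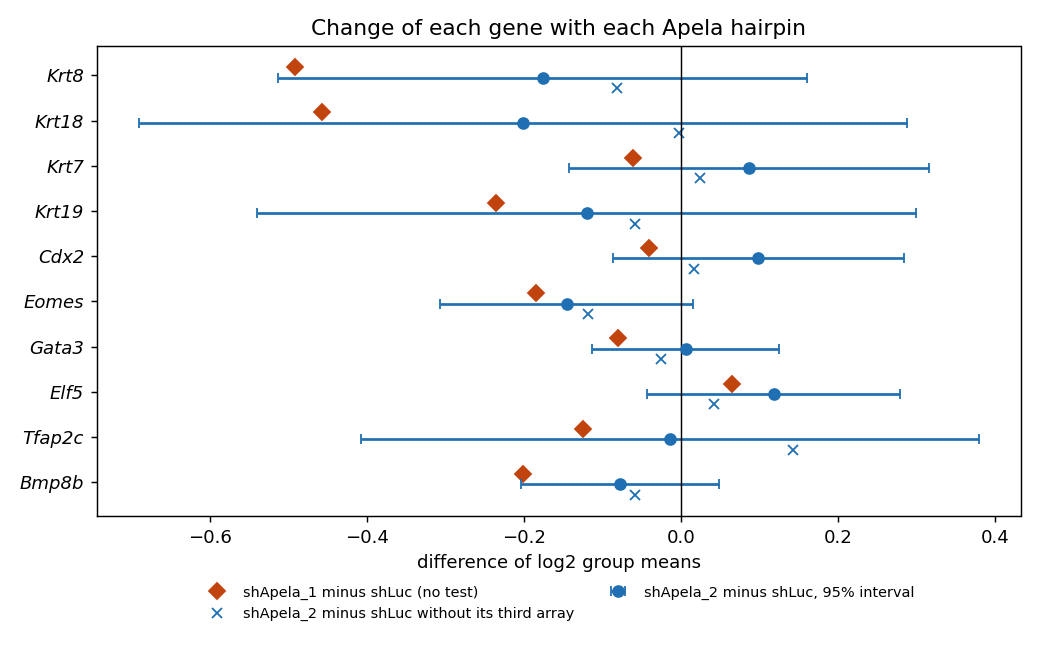
Difference of log2 group means from shLuc (horizontal axis) for each gene. Diamonds are shApela_1, with no interval because these values chose the list, circles are shApela_2 with limma's 95% interval, and crosses are shApela_2 without the third array. All 10 intervals hold 0, and the shApela_1 differences of Krt8 (-0.49) and Krt18 (-0.46) lie farthest out.

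The 6 genes over the median probe set all had their means in the order shApela_1, shApela_2, shLuc, and the 4 dim genes all had their highest mean in shApela_2. The place of shApela_1 in this order comes from the comparison that chose the list, and both hairpins share the shLuc arrays. The share of all genes with this order was not counted, so the order is a description only. On the third shApela_2 array those 4 dim genes differed from the mean of the other shApela_2 arrays by 0.09 to 0.25, and the 6 brighter ones by -0.60 to -0.06. Without this array Tfap2c left the order, with a mean of 9.44 in shApela_2 against 9.30 in shLuc. Elf5 (5.62 in shApela_2, against 5.64 in shApela_1) and Gata3 (5.78 in shApela_2, against 5.80 in shLuc) no longer had their highest mean in shApela_2. The other genes of the list kept their places. How far the split comes from this array was not tested.

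Arrays with the same number shared part of their deviations in shApela_1 and shLuc, so the differences were also taken number by number. For Krt8 they were -0.40, -0.40 and -0.68 in the order of numbers. For Krt18 they were -0.44, -0.32 and -0.62. Both genes were thus lower in shApela_1 at each number, while their levels moved by as much between numbers of 1 group. Bmp8b (-0.24, -0.31 and -0.05), Krt19 (-0.23, -0.42 and -0.06) and Eomes (-0.10, -0.26 and -0.20) were also lower at all 3 numbers. So was Gata3, by -0.01, -0.01 and -0.22, which makes 6 genes, beside 16.1% of all genes that were lower at all 3 numbers and 20.8% that were higher. These differences belong to the comparison that chose the list, so the count supports nothing.

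Krt8 and Krt18 varied together across the arrays, beyond the difference between groups. Over the 9 arrays the Pearson correlation of their log2 levels was 0.91 (Spearman 0.87, and Pearson 0.78 without the 2 arrays farthest from the Krt8 median). After the group means were taken out it was 0.89. Arrays of 1 group and arrays of equal number share culture or handling to an unknown degree, so these values describe the 9 arrays and carry no p. With group means taken out, Krt18 and Tfap2c had the highest value of the 45 pairs (0.96), Krt8 and Tfap2c had 0.86, and Krt8 and Krt19 had 0.70. The median over all pairs was 0.28, with a lowest value of -0.91 for Gata3 and Bmp8b, both with very small deviations.

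**Figure D3:**
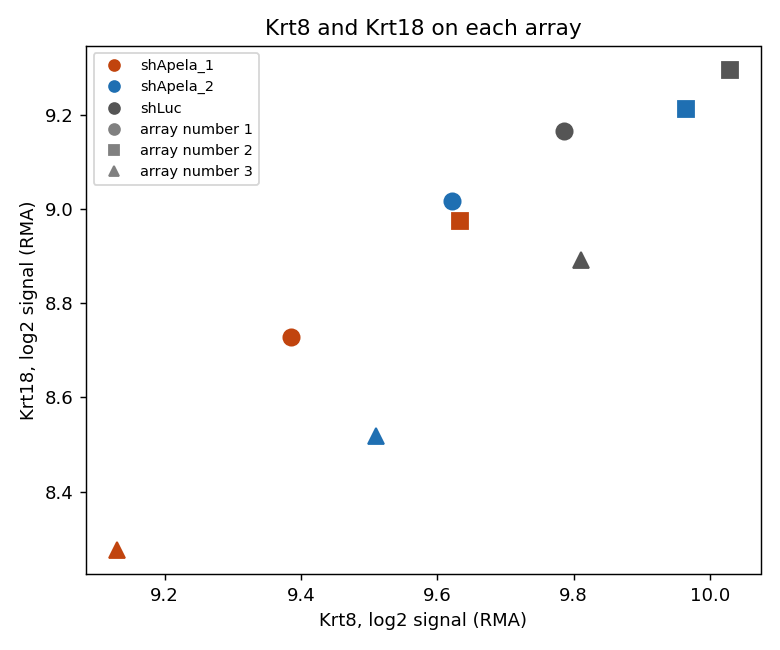
Log2 signal of Krt8 (horizontal axis) and Krt18 (vertical axis) on each of the 9 arrays, coloured by group, with a symbol for each replicate number. The third shApela_1 array is lowest for both genes (9.13 and 8.28) and the second shLuc array is highest (10.03 and 9.29).

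Among 10170 other named genes over the median probe set, the ones most like Krt8 over the 9 arrays by Pearson correlation were Camsap3 (0.98), which caps microtubule minus ends in epithelial cells, the potassium channel gene Kcnk1 (0.94), Xpnpep1 (0.93) and the splicing factor gene Sf3b1 (0.93). Krt18 was most like the actin-binding caldesmon gene Cald1 (0.96), Aebp2 (0.96), a cofactor of Polycomb complex PRC2, the interferon regulatory factor gene Irf1 (0.95) and the thrombospondin gene Thbs1 (0.95). Bmp8b was most like Pum2 (0.96), Seh1l (0.95), Ppme1 (0.95) and Rbm28 (0.94). These are the highest of many values, so each is high in part by selection. Without the 2 arrays farthest from the median of Krt8, its 4 values lay between 0.90 and 0.96. With the same rule they lay between 0.82 and 0.87 for Krt18 and between 0.77 and 0.86 for Bmp8b.

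Krt8 and Krt18 are neighbours on chromosome 15, with 0 protein-coding genes between them in the RefSeq table of GRCm38.p6, and run in opposite directions. Because their levels moved together, the 250 bases before each annotated start are shown, 5′ to 3′ on the gene's own strand and credited to RefSeq. Krt8 lies on the minus strand (chr15:102004343-102004592) and Krt18 on the plus strand (chr15:102027966-102028215). Capitals mark GATAA, the core that GATA factors bind, on either strand.
Krt8: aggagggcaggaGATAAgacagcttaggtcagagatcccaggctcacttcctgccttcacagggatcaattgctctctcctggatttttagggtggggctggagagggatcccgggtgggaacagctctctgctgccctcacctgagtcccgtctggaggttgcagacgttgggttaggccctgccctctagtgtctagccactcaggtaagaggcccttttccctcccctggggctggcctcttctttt
Krt18: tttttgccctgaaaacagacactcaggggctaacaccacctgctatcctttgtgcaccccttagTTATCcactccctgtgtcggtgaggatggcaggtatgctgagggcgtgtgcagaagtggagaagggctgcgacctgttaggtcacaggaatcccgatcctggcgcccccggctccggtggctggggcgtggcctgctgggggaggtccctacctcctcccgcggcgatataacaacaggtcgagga
Each promoter held GATAA once, at -238 to -234 in Krt8 and at -186 to -182, on the opposite strand, in Krt18, as did at least 1 place in 22.6% of all 32851 promoter windows of that length. The AP-2 motif GCCNNNGGC, searched on both strands, was present once in Krt18 (-83 to -75) and not in the Krt8 window, with a share of 13.7% over all windows. TATAAA (12.4%), GGGCGG (32.7%) and the TEAD motif GGAATG (12.6%) had no match in either window. None of the matches shown overlaps another. A match describes the letters only. Of the 10 genes, 8 had a promoter in the table.

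The rest of the trophectoderm programme was read from 6 lists chosen for their roles, with 94 measured genes. In shApela_2, 0 of the 94 passed the threshold in either direction (limma, 7 at an unadjusted p under 0.05), beside 0.015% of all genes. Of these genes 48 were lower and 46 higher, with a median of -0.00. In shApela_1, 39 were lower and 55 higher, with a median of 0.02. The arrays did not overlap for 10 of the 94 downward and 2 upward in shApela_2, beside 4.65% and 5.68% of all genes. In shApela_1 they did not overlap for 9 downward and 11 upward, beside 5.61% and 8.05% of all genes. Of the 94 genes 68 averaged over the median probe set, and bright genes read low on the third shApela_2 array. With dim genes left out, 61.9% of all genes were lower in shApela_2. Without that array 45 of the 94 were lower in shApela_2, with a median of 0.01. The part of that array in the 10 and 2 genes without overlap was not tested.

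**Figure D4:**
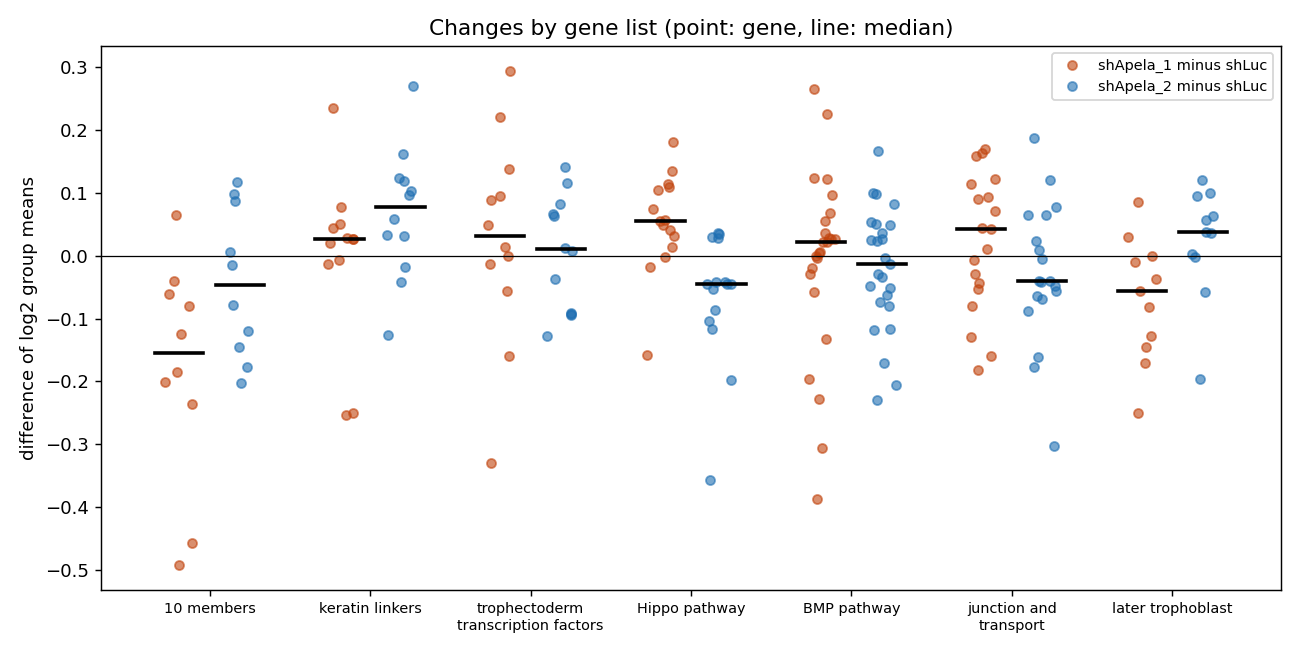
Difference of log2 group means from shLuc (vertical axis) for the 10 genes and the 6 lists of the programme, with shApela_1 to the left of shApela_2. Each point is a gene and each black line a median. The 10 genes have the lowest median in shApela_1 (-0.15), and the 6 lists have medians between -0.06 and 0.08. The shApela_1 differences chose the 10 genes but not the 6 lists, so this ranking supports nothing.

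Genes that anchor keratin filaments had medians above 0 with both hairpins. Of 12 further keratins, desmosome proteins and plakins, 4 were lower and 8 higher in shApela_1 (median 0.03), and 3 were lower in shApela_2 (median 0.08). In shApela_1 the arrays did not overlap for 1 of the 12 downward and 1 upward, beside 5.61% and 8.05% of all genes. In shApela_2 this was so for 0 in either direction. Pkp2, a desmosomal plakophilin chosen after its values were seen, measured 9.64, 9.76 and 9.74 in shApela_1, against 9.89, 10.03 and 9.98 in shLuc, without overlap. In shApela_2 it measured 9.90, 9.98 and 9.89, which overlapped shLuc (-0.04, limma adjusted p = 0.784). Desmoplakin (Dsp), which ties keratins to desmosomes and was chosen in the same way, measured 8.22, 8.45 and 7.97 in shApela_1 and 8.86, 9.01 and 8.32 in shApela_2, against 8.45, 8.73 and 8.21 in shLuc. It lay on opposite sides of the control in both hairpins (-0.25 and 0.27, or 0.47 without the third shApela_2 array), with the third array lowest in each group as for Krt18. The smallest p values of the list with shApela_2 belonged to Krt80 (0.12) and the envoplakin gene Evpl (0.16), each with limma adjusted p = 0.68. Without the third shApela_2 array these differences were 0.07 for Krt80 and 0.06 for Evpl.

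The upstream factors had medians near 0 with both hairpins. Of 12 further trophectoderm transcription factors and co-activators 5 were lower with each hairpin, with medians of 0.03 in shApela_1 and 0.01 in shApela_2. In shApela_1 the arrays did not overlap for 0 of the 12 downward and 3 upward, beside 5.61% and 8.05% of all genes. In shApela_2 this was so for 1 downward and 0 upward, beside 4.65% and 5.68%. Yap1, the co-activator of TEAD4, measured 10.004, 10.01 and 9.93 in shApela_2, against 10.02, 10.08 and 10.11 in shLuc (-0.09, limma adjusted p = 0.68), and Ets2 differed by -0.13 (adjusted p = 0.68, and -0.05 without the third array). In shApela_1 both were higher than shLuc, Yap1 by 0.10 with overlap and Ets2 by 0.14 without overlap. Of 15 Hippo pathway genes 3 were lower in shApela_1 (median 0.06) and 11 in shApela_2 (median -0.05, and 0.01 with 7 lower without the third shApela_2 array). The arrays did not overlap for 1 downward and 0 upward in shApela_1, and for 3 downward and 0 upward in shApela_2. Lats2, a kinase that keeps YAP1 out of the nucleus, measured 7.09, 6.997 and 6.86 in shApela_2, against 7.15, 7.15 and 7.24 in shLuc. All shApela_2 arrays lay below all shLuc arrays, and the difference of -0.20 (95% interval -0.33 to -0.06) did not pass over all genes (limma adjusted p = 0.68). Amot, the angiomotin that holds YAP1 at junctions, differed by -0.10 in shApela_2 (limma adjusted p = 0.68). In shApela_1 Lats2 differed by 0.03 and Amot by -0.02, both with overlap.

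The BMP pathway, of which Bmp8b is a ligand, held genes on both sides of the control with each hairpin. Of 25 genes 10 were lower in shApela_1 (median 0.02) and 14 in shApela_2 (median -0.01). Bmpr1a, a type I BMP receptor, measured 9.77, 9.68 and 9.69 in shApela_2, against 9.92, 9.91 and 10.002 in shLuc (-0.23, 95% interval -0.36 to -0.10, limma adjusted p = 0.669). The ligand gene Bmp5, which measured 5.40, 5.38 and 5.48 in shApela_2, against 5.20, 5.27 and 5.28 in shLuc, differed by 0.17 (limma adjusted p = 0.68).

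Chosen after their values were seen, the BMP target genes Id1 and Id2 lay below all shLuc arrays in shApela_1. Of the 25 BMP genes 15 were higher in shApela_1. The arrays did not overlap for 4 downward and 3 upward, beside 5.61% and 8.05% of all genes, and Bambi (0.23) was among those upward. Id1, which encodes an inhibitor of basic helix-loop-helix factors, measured 7.96, 7.88 and 8.14 in shApela_1 and 8.31, 8.31 and 8.42 in shApela_2, against 8.19, 8.47 and 8.48 in shLuc. The difference was -0.39 in shApela_1 and -0.03 in shApela_2 (limma adjusted p = 0.907, and -0.07 without the third array). Id2, its relative that is expressed in trophectoderm, differed by -0.23 and -0.12 (adjusted p = 0.694 in shApela_2). The type II receptor gene Bmpr2 differed by -0.31 in shApela_1, without overlap, and by -0.17 in shApela_2 (limma adjusted p = 0.68). The shApela_1 values of these genes come from the comparison that chose the list and were not tested.

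Genes of polarity, junctions and transport, which the trophectoderm uses to fill the blastocoel, lay on both sides of the control with each hairpin. Of 19 measured genes 8 were lower in shApela_1 (median 0.04) and 12 in shApela_2 (median -0.04, and 0.01 with 9 lower without the third shApela_2 array). In shApela_1 the arrays did not overlap for 2 of the 19 downward and 4 upward, beside 5.61% and 8.05% of all genes. In shApela_2 this was so for 1 downward and 0 upward, beside 4.65% and 5.68%. Prkci, the atypical protein kinase C of the apical domain, measured 10.63, 10.74 and 10.55 in shApela_2, against 10.92, 10.98 and 10.93 in shLuc. The groups did not overlap, and the difference of -0.30 (SE 0.05, 95% interval -0.42 to -0.18, unadjusted p = 0.000316) had the smallest p of the 94 genes but missed the threshold over all genes (limma adjusted p = 0.274, and 0.33 without the third array). In shApela_1 Prkci measured 11.01, 11.02 and 10.93, above or within the shLuc range. The water channel gene Aqp3 differed by 0.19 in shApela_2 (limma adjusted p = 0.68).

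Later trophoblast products were mostly dim, with 4 of 11 over the median probe set. Of the 11, 9 were lower in shApela_1 (median -0.06) and 3 in shApela_2 (median 0.04), and 8 in shApela_2 without the third array (median -0.02). The imprinted placental gene Phlda2 measured 11.23, 11.26 and 11.38 in shApela_2, against 11.44, 11.41 and 11.60 in shLuc (-0.20, limma adjusted p = 0.68), and the homeobox gene Esx1 differed by 0.10 (adjusted p = 0.68).

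Primitive endoderm also expresses Krt8 and Krt18. Of 15 primitive endoderm markers 9 were lower in shApela_1 (median -0.01) and 4 in shApela_2 (median 0.06), and the mean log2 level over the list was 7.23 to 7.37 in shApela_1 and 7.26 to 7.39 in shApela_2, against 7.27 to 7.30 in shLuc. The brightest of them, Sparc and Lamb1, differed from shLuc by 0.10 and -0.01 in shApela_1 and by 0.02 and -0.05 in shApela_2 (limma adjusted p = 0.941 and 0.77). Dab2, an endocytic adaptor of primitive endoderm and trophoblast that was chosen after its values were seen, measured 7.35, 7.55 and 7.43 in shApela_1 and 7.60, 7.55 and 7.41 in shApela_2, against 7.84, 7.79 and 7.71 in shLuc. All arrays of both hairpins lay below all shLuc arrays. The differences were -0.34 in shApela_1 and -0.26 in shApela_2 (limma adjusted p = 0.68, and -0.20 without the third shApela_2 array). Of the 15 markers the arrays did not overlap for 2 downward and 1 upward in shApela_1, beside 5.61% and 8.05% of all genes. In shApela_2 this was so for 1 downward and 1 upward, beside 4.65% and 5.68%.

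Of 10 fibroblast feeder markers 7 were lower in shApela_1 (median -0.03) and 1 in shApela_2 (median 0.05), with a mean log2 level of 6.43 to 6.61 in shApela_1 and 6.57 to 6.69 in shApela_2, against 6.57 to 6.65 in shLuc. The 1 lower gene in shApela_2 was Acta2, smooth muscle actin, which measured 8.54, 9.02 and 8.003 in shApela_1 and 8.78, 8.88 and 8.28 in shApela_2, against 9.06, 9.56 and 8.95 in shLuc. Its differences were -0.67 in shApela_1 and -0.55 in shApela_2 (95% interval -1.16 to 0.06, limma adjusted p = 0.68, and -0.37 without the third shApela_2 array), and the third array was the lowest of each group, as for Krt18. Thy1, a fibroblast surface marker, differed by -0.02 in shApela_1 and 0.05 in shApela_2 (limma adjusted p = 0.768). The part of such cells in the keratin values was not tested.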

How the data were processed

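Total RNA of 9 samples was measured on Affymetrix arrays in 3 groups of 3, assigned from the sample titles. The authors deposited log2 expression values, 1 for each probe set on each array, which came from RMA in Partek 6.6, per the submitters' processing notes. No source used here states the settings or the log base, and the range (3.86 to 13.48) was taken to mean base 2. RMA's quantile step forces the arrays towards 1 distribution, so the values are relative within an array. Scanner intensities were not used here. Precision is limited by the 3 arrays per group.

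Of 28853 probe sets 21775 had a single symbol in GEO's platform annotation, and the brightest per gene was kept (19938 genes; 0 symbols changed by the RefSeq table of GRCm38.p6). R 4.3.3 and limma 3.58.1 (lmFit, eBayes, two-sided) fitted all 9 arrays without a block, with 6 residual degrees of freedom and Benjamini-Hochberg adjustment over all genes at 0.05. The fit was tested on simulated data. The 10 genes, the lists, the tests and the alternatives were chosen with earlier results of these data known. Beside the 10 genes, the text names from each of the 6 programme lists the 2 genes of smallest p with shApela_2, from each marker list the 2 brightest, for 3 of the genes the 4 most alike, and others as stated. Some other genes of the lists were not analysed here.

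Deviations from the group means were compared between arrays of equal number. The correlations of shApela_1 with shLuc were 0.44, 0.40 and 0.68, so the numbers were taken to pair those arrays from the data alone. Those of shApela_2 with shLuc were -0.01, 0.67 and 0.47, which did not meet the rule of more than 0.1 in every pair.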

Additional observations from a re-analysis of the deposited data

Results flagged for a closer look

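Bambi, which encodes a pseudoreceptor that dampens BMP and TGF-beta signalling, moved in opposite directions with the hairpins. It measured 8.66, 8.73 and 8.51 in shApela_1 and 8.32, 8.34 and 8.21 in shApela_2, against 8.43, 8.44 and 8.35 in shLuc. All shApela_1 arrays lay above and all shApela_2 arrays below all shLuc arrays. The differences from shLuc were 0.23 in shApela_1 and -0.12 in shApela_2 (limma adjusted p = 0.68, and -0.08 without the third shApela_2 array), and shApela_2 minus shApela_1 was -0.34. The difference between the hairpins was not tested, and both share the shLuc arrays.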

How the results depend on the processing

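The count of 0 genes past the threshold with shApela_2 held for the 10 genes and for the 94 genes of the programme under all 18 alternatives, 1 of them added after the data were seen, and at adjusted p under 0.01, and the smallest adjusted p of any of the 10 over them was 0.422 (Elf5 without shApela_2 replicate 1). The replicate number as a block gave 0 as well and left every difference as it was, so that it changed no call. The number of the 10 genes lower than shLuc lay between 5 and 7 with shApela_2 and between 6 and 9 with shApela_1 when single arrays were left out. With all arrays it was 5 to 7 with shApela_2, and 8 or 9 with shApela_1 apart from the fit without dim genes, which kept 6 of the 10 genes, all lower with both hairpins. The median difference was -0.22 with shApela_1 in that fit (-0.15 with all 10 genes) and -0.13 with shApela_2 (-0.05 with all 10 genes). The differences of the 6 kept genes were unchanged in that fit, and Krt7, Cdx2, Gata3 and Elf5 did not enter it. With shApela_1 the median was -0.21 to -0.087 without single arrays. The value nearest 0 came without the second shLuc array. The median with shApela_2 lay between -0.12 and 0.01 without single arrays. Signs turned for small differences with both hairpins. With shApela_2, Gata3 (0.01) became -0.013 with array weights, -0.035 with centred medians and -0.051 after a second quantile normalization. Krt19 (-0.12) became 0.021 with array weights. Tfap2c (-0.01) became 0.12 with array weights and 0.031 after a second quantile normalization. With the third array of every group left out, Gata3 was -0.0022, Krt7 (0.09) was -0.068 and Tfap2c was 0.030. Without single arrays Gata3 ranged from -0.025 to 0.029, Krt19 from -0.32 to 0.034, Krt7 from -0.0054 to 0.18 and Tfap2c from -0.15 to 0.14. With shApela_1, Cdx2 (-0.04) became 0.012 with array weights, 0.049 with the third array of every group left out and 0.028 without the third shApela_1 array. That array's absence also gave 0.0055 for Krt7 (-0.06) and 0.010 for Tfap2c (-0.13), and Krt7 was 0.028 without the second shLuc array. Without single arrays, Krt18 with shApela_1 ranged from -0.62 to -0.27 and Krt19 from -0.32 to -0.081. The cause was not tested. Each of the 10 genes had 1 probe set, so averaging probe sets changed nothing for them. Dim probe sets and 3 arrays per group limit what can be seen: the shApela_2 intervals reach from 0.12 to 0.49 on either side of the estimate.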
